A study of Mus musculus with 208 samples.

Results

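Back skin of F1 mice born to a germ-free (GF) father and a GF mother was compared with back skin of F1 mice whose parents were both conventionally raised (CR). The libraries were chosen by their labels alone: 3 GF×GF and 5 CR×CR libraries, 8 of the 208 samples of the series, all in one deposited table. All 8 mice were wild-type adults bred and kept in a conventional facility, so the GF×GF offspring themselves carried a microbiota and differed from the controls in the history of both parents. The CR line was C57BL/6 bought from Charles River and the GF line came from a university gnotobiotic core. That core also housed Swiss-Webster mice, but the GF mice whose offspring were studied are described as of the same strain as the CR line. The substrain of the GF line, the litters and the hour of harvest are not given in the sources used here, so that parental germ-free history, colony of origin, litter and time of harvest cannot be told apart in this comparison. In the names of crosses the father stands first. Mice of both sexes were used in the study, and whole minced skin was measured by RNA sequencing after removal of ribosomal RNA. Where it helps to place a gene, its values are also given in F1 skin from a GF father and a CR mother (GF×CR, 3 mice), in F2 skin of GF×GF (3) and CR×CR (5) descent, and in sebaceous glands isolated from F1 GF×GF (3) and CR×CR (2) mice. To obtain F2, the study mated F1 GF×GF females to new GF males, and in an alternative scheme it bred littermates. Which scheme gave the F2 skin is not stated. The F2 GF×GF mice may thus have had a GF father of their own.

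Bulk skin holds epidermis, hair follicles with their sebaceous glands, dermis, fat, muscle and immune cells, and a lower level in it can mean fewer cells of a type or less RNA per cell, which cannot be told apart here. Several of the genes described below belong to systems that respond to time of day and to adrenal hormones. In the circadian clock, CLOCK and BMAL1 (Arntl) bind E-boxes and switch on the Period and Cryptochrome genes, whose products then repress them, and skin cells run this clock themselves. Glucocorticoids, secreted by the adrenal gland in a daily rhythm and under stress, bind the receptor encoded by Nr3c1, which then binds its response elements and induces genes such as Fkbp5, Tsc22d3, Zbtb16, Ddit4 and Per1.

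Values are CPM as deposited, estimated reads of a gene scaled to a common library total. Depth estimated from the steps between low values was 11.3 to 24.7 M reads a library, and CR×CR 4 was the shallowest. Both groups had the markers of skin: Krt5, the basal keratin, ranged over 303 to 675 CPM in CR×CR and 267 to 335 CPM in GF×GF. The liver transcript Alb reached at most 3.44 CPM. Gm22405 and Gm26191, annotated in RefSeq as 7S RNA genes (Rn7s1 and Rn7s2), had identical values in each of the 8 libraries and together took 20.9 to 43.3% of the CPM in CR×CR and 33.8 to 49.4% in GF×GF. Mitochondrial ribosomal RNA took 10.3% of CR×CR 4 and 0.666 to 1.70% of the others. With so much of each library in few noncoding genes, all other genes were shifted: the median log2 fold change over the 16668 genes tested was -0.20, and 14074 of them were below 0. After median-ratio scaling, which sets the typical gene equal between libraries, the median was 0.00, and both scales are given wherever a list is described.

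**Figure D1:**
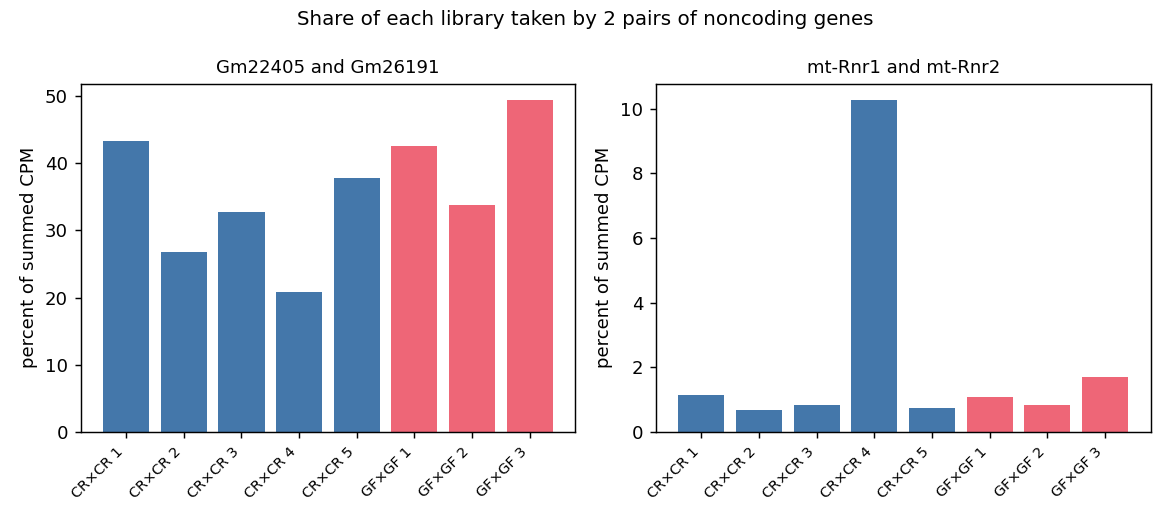
Share of summed CPM, in percent, taken by Gm22405 and Gm26191 (left) and by mt-Rnr1 and mt-Rnr2 (right) in each of the 5 CR×CR (blue) and 3 GF×GF (red) F1 skin libraries, 1 bar a mouse. The left pair took 20.9 to 49.4% of a library, and CR×CR 4 stood apart on the right at 10.3%.

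In limma on log2(CPM + 0.5), with Benjamini-Hochberg adjustment over all 16668 genes, 10 genes were higher in GF×GF skin (0.06% of those tested) and 5 were lower (0.03%) at adjusted p under 0.05; under median-ratio scaling the numbers were 14 and 2. These counts moved with the fit and the mice: array quality weights, which weight each library by its scatter, gave 139 and 2238, and leaving out 1 GF×GF mouse cut the higher genes to 3 or 4. Part of that drop was set by the limit on low values: Hist1h4m, Gm21451 and Vmn2r96, described below, could then not be tested. At the threshold the study used, a log2 fold change beyond 1 in size with unadjusted p under 0.05, 33 genes (0.198%) were higher and 92 (0.552%) lower, against 43 and 41 under median-ratio scaling. At p under 0.05 with no limit on the fold, 77 genes (0.462%) were higher and 1411 (8.47%) lower. Of the 15 genes at adjusted p under 0.05, 10 (66.7%) carried predicted gene names, against 2533 of all genes tested (15.2%). RefSeq had an entry for 11 of the 15 names, of which 5 were protein coding, 4 pseudogenes and 2 long noncoding RNAs. Of the pseudogene names, Erdr1 and Gm21887 led to the same entry. The groups of mice did not overlap for 47 genes (0.282%) in the higher direction and 1036 (6.22%) in the lower.

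The clearest rise was in Hist1h4m, one of the near-identical genes that encode histone H4. It was listed at 0 in CR×CR mice 1 to 4 and at 0.313 CPM in CR×CR 5, and read 16.8, 15.5 and 12.6 CPM in the GF×GF mice. The log2 fold change was 4.80 (SE 0.24), with an adjusted p of 2.59e-06 in limma. The added 0.5 CPM makes it smaller than the fold between the listed values, which are themselves uncertain, as described below. In GF×CR skin the 3 mice read 10.1, 10.3 and 8.32 CPM, against the same 5 CR×CR mice. In F2 skin, from other mice with controls of their own, GF×GF read 20.7, 34.1 and 17.98 CPM and CR×CR 0, 0, 0.347, 0 and 0 (limma adjusted p = 1.07e-06). Isolated F1 sebaceous glands gave 24.3, 17.2 and 29.7 CPM in GF×GF, and a listed 0 in each CR×CR gland sample.

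The neighbouring gene on chromosome 13, Hist1h4n (RefSeq H4c18, beside H4c17, which is Hist1h4m), ran the other way. It read 19.5, 25.2, 22.2, 12.7 and 22.7 CPM in CR×CR and 12.3, 11.7 and 6.51 CPM in GF×GF, groups that did not overlap but did not pass the limma test (log2 fold change -0.99, SE 0.26, adjusted p = 0.50). In F2 it was lower in GF×GF and did pass (log2 fold change -1.77, adjusted p = 0.0414). Summed over the pair, F1 CR×CR mice read 19.5, 25.2, 22.2, 12.7 and 23.1 CPM and GF×GF mice 29.1, 27.2 and 19.2 CPM, and these overlapped. Reads from such copies can be divided between them in more than one way, so the values of either gene alone are uncertain. Over all 13 H4 genes listed, the summed level was 166 to 281 CPM in CR×CR and 147 to 223 CPM in GF×GF. Among 59 tested replication-dependent histone genes Hist1h4m was the 1 that passed.

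Erdr1, named for a role in erythroid differentiation, was also higher in GF×GF skin. RefSeq places it on the X chromosome and classes it as a transcribed pseudogene. CR×CR mice read 1.20, 2.59, 1.94, 1.24 and 2.61 CPM and GF×GF mice 47.0, 15.1 and 42.5 CPM. The lowest GF×GF mouse, the second, was still far above the highest CR×CR mouse (log2 fold change 3.77, SE 0.36, limma adjusted p = 0.00107). GF×CR mice stood between, at 10.4, 8.92 and 8.79 CPM. In F2, GF×GF mice read 23.1, 19.5 and 13.2 CPM and no CR×CR mouse exceeded 1.74 CPM (limma adjusted p = 0.000233). Gm21887, which RefSeq gives as another name of Erdr1 and which therefore may share its reads, rose with it, from 1.73, 4.62, 3.04, 2.38 and 3.95 CPM to 21.5, 9.25 and 18.2 CPM (log2 fold change 2.19, limma adjusted p = 0.0326). Both were lowest in the second GF×GF mouse. The call of Gm21887 was lost in 10 of 20 alternatives, among them leaving out any mouse but CR×CR 2 or GF×GF 2. The call of Erdr1 was lost with the mean level of Y-linked genes as a covariate (limma adjusted p = 0.0777). The summed Y-linked level overlapped between the groups, at 16.6 to 27.8 CPM in CR×CR and 16.5 to 20.1 CPM in GF×GF. Xist and Tsix together read 1754 to 1941 CPM in CR×CR and 1527 to 1855 CPM in GF×GF. Every mouse thus had both X-inactivation and Y-linked reads, and the covariate cannot be read as the sex of a mouse.

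Vmn2r96, a vomeronasal pheromone receptor gene, was raised in F1 GF×GF skin and stayed under 1 CPM in the other skin groups compared here. It read 0.0484, 0.126, 0.0127, 0 and 0 CPM in CR×CR and 3.46, 8.79 and 4.58 CPM in GF×GF (log2 fold change 3.42, limma adjusted p = 0.000327). GF×CR mice read 0, 0.634 and 0 CPM and F2 GF×GF mice 0, 0.350 and 0.933 CPM, both too low to enter the test. No F2 CR×CR mouse exceeded 0.0347 CPM, so a smaller rise in F2 GF×GF was not tested. Isolated F1 glands read 0, 2.06 and 0 CPM in GF×GF and 0 in each CR×CR sample. Its relative Vmn2r97 read 0.45 to 0.93 CPM in CR×CR and 2.37, 5.52 and 2.28 CPM in GF×GF, without overlap, and did not pass the limma test (log2 fold change 1.61, adjusted p = 0.105). In both receptors GF×GF 2 was the highest mouse.

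On chromosome 14, Gm21451, which RefSeq lists as protein coding and places between Entpd4 and Entpd4b, was listed at 0 in CR×CR mice 1 to 4 and at 0.294 CPM in the fifth. It read 9.12, 5.10 and 24.9 CPM in GF×GF (log2 fold change 4.34, limma adjusted p = 0.00093), and 2.06, 1.63 and 2.99 CPM in GF×CR. In F2 it passed the test as well, with 7.32, 10.5 and 7.72 CPM in GF×GF. Entpd4, a nucleotide-hydrolysing enzyme of the Golgi, moved beside it: 21.04, 27.7, 23.3, 24.9 and 25.5 CPM in CR×CR against 39.5, 47.55 and 29.5 CPM in GF×GF, without overlap. Its log2 fold change was 0.63 (SE 0.18, limma adjusted p = 0.53), and 0.85 with an adjusted p of 0.0311 under median-ratio scaling. In F2 skin the log2 fold change of Entpd4 was 0.94. In isolated F1 glands Entpd4 read 402, 467 and 381 CPM in GF×GF and 169 and 179 CPM in CR×CR (log2 fold change 1.25, limma adjusted p = 0.0108).

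A further group of raised transcripts held predicted genes. Gm5859 and Gm17081 are adjacent pseudogenes on chromosome 4, near the chemokine gene Ccl21b. Gm5859 was even within groups, at 3.08, 2.56, 2.79, 3.05 and 2.64 CPM in CR×CR and 16.1, 21.4 and 13.1 CPM in GF×GF (log2 fold change 2.36, limma adjusted p = 0.000327). Gm17081 went from 0.82, 1.28, 2.01, 2.98 and 1.16 CPM to 9.001, 14.4 and 8.05 CPM (2.40, adjusted p = 0.0189). Neither overlapped between groups, and GF×GF 2 was again the highest mouse for both. Gm28049 read 0.87 to 1.89 CPM in CR×CR and 9.40, 7.78 and 9.32 CPM in GF×GF (2.37, adjusted p = 0.000766). Gm13301 rose by 2.42 on the log2 scale and Gm28187 by 1.504, also without overlap (limma adjusted p = 0.0234 and 0.0337). The call of Gm28187 was lost without any single one of the 8 mice, that of Gm13301 without CR×CR 4 or 5 or GF×GF 2 or 3, and that of Gm17081 without CR×CR 5 or any GF×GF mouse. In F2 the log2 fold changes were 2.17 for Gm5859, 2.22 for Gm17081, 2.25 for Gm28049, 2.17 for Gm13301 and 0.75 for Gm28187, and none of these 5 passed the adjusted limma test there.

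In the other direction, Gm28438 was present in every CR×CR mouse, at 27.7, 34.6, 28.7, 39.3 and 28.9 CPM, and listed at 0 in all 3 GF×GF mice (limma adjusted p = 2.02e-08). No fold is given against a group listed at 0. GF×CR mice read 10.7, 14.02 and 23.4 CPM, below every CR×CR mouse. F2 repeated the pattern in other mice, with 14.2 to 22.7 CPM in CR×CR and a listed 0 in every GF×GF mouse (limma adjusted p = 2.76e-07). The long noncoding RNA 3300005D01Rik on chromosome 17 fell from 3.07, 2.35, 2.88, 1.35 and 2.04 CPM to 0.188, 0.162 and 0.149 CPM (log2 fold change -2.06, limma adjusted p = 0.00848), with -2.06 also in F2 (adjusted p = 0.0361). GF×CR mice read 1.76, 0.773 and 1.04 CPM for it. Its call was lost without any one of the GF×GF mice, with no filter and with the Y-linked covariate.

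**Figure D2:**
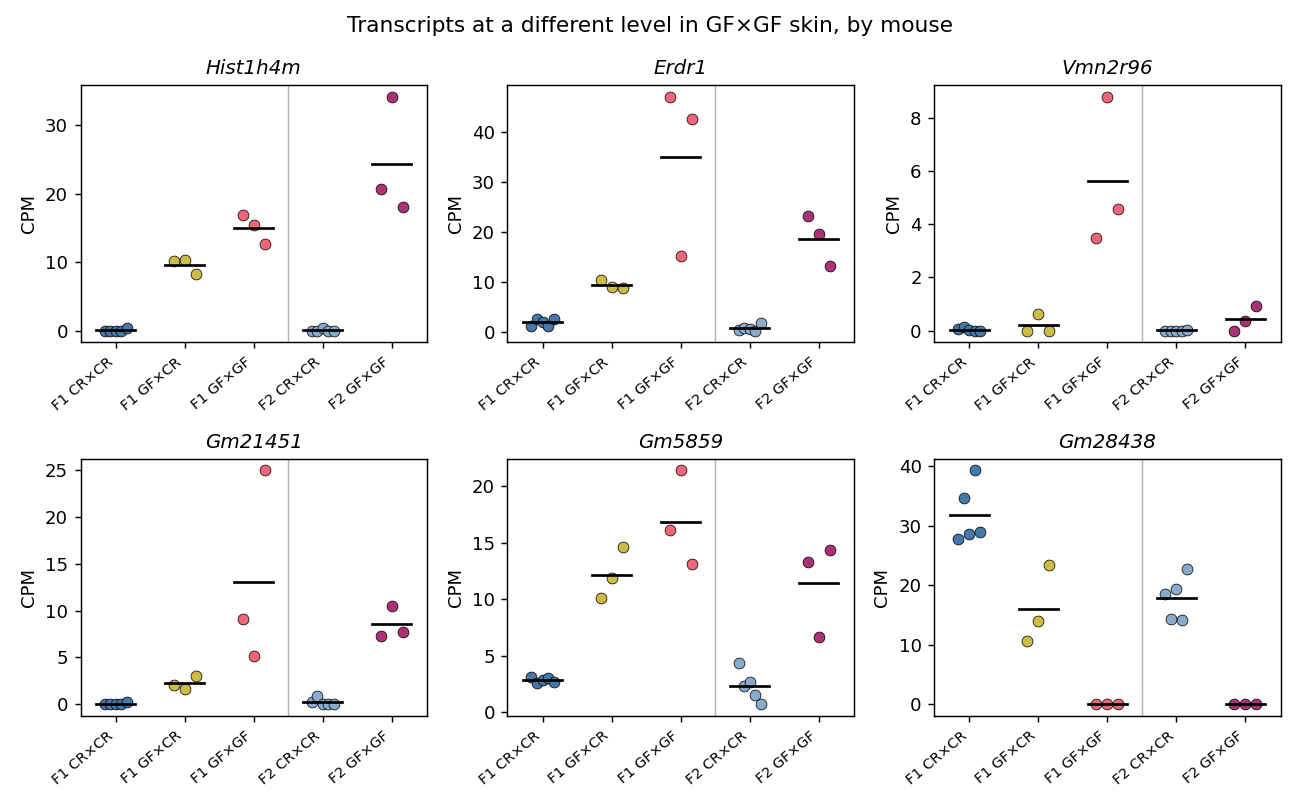
CPM (linear axis from 0) of 6 transcripts in each mouse of F1 CR×CR, F1 GF×CR, F1 GF×GF, F2 CR×CR and F2 GF×GF skin, 1 point a mouse, with bars at group means; the crosses come from separately scaled tables. Hist1h4m, Erdr1, Gm21451 and Gm5859 were higher in GF×GF skin of both generations, and Gm28438 was listed at 0 in both. Vmn2r96 was above 1 CPM in F1 GF×GF only among the groups shown.

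The other 3 falls were Per2, Wee1 and E230001N04Rik. Per2, a repressor in the clock loop, read 8.82, 7.25, 6.96, 8.14 and 6.21 CPM in CR×CR and 2.83, 3.01 and 2.75 CPM in GF×GF. Every GF×GF mouse was below every CR×CR mouse, and the 3 lay close together (log2 fold change -1.24, SE 0.18, limma adjusted p = 0.0244). Wee1, a kinase that holds cells back from mitosis and is known as a clock output in mouse liver, read 21.1, 14.6, 24.9, 21.4 and 18.6 CPM against 6.89, 7.50 and 7.99 CPM (-1.35, SE 0.19, adjusted p = 0.0234). E230001N04Rik, a long noncoding RNA that lies close to Fkbp5 on chromosome 17, read 5.08, 5.33, 8.62, 9.04 and 9.28 CPM against 1.58, 1.59 and 2.27 CPM (-1.76, SE 0.25, adjusted p = 0.0244). Under median-ratio scaling the log2 fold changes were -1.04, -1.14 and -1.57 and the limma adjusted p values 0.138, 0.201 and 0.119, so none of the 3 calls held there. The call of Per2 was lost without any single one of the 8 mice and that of Wee1 without any but CR×CR 2. That of E230001N04Rik was lost without CR×CR 3, 4 or 5 or any GF×GF mouse.

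In F2 skin these 3 genes did not share the pattern. Per2 read 11.3, 24.5 and 9.14 CPM in F2 GF×GF and 7.36 to 22.4 CPM in F2 CR×CR, and Wee1 27.2, 26 and 20.7 CPM against 15.7 to 25.6 CPM. The F2 log2 fold changes were 0.43 for Per2, 0.34 for Wee1 and 0.25 for E230001N04Rik. In the separately scaled table of the GF×CR cross, its 3 mice read 2.99, 5.53 and 8.55 CPM of Per2, against 5.46 to 7.76 CPM in the same F1 controls. Of Wee1 they read 9.95, 8.65 and 16.03 CPM, against 14.6 to 24.8 CPM. The difference between generations was tested for each gene by an interaction in limma over the 8 F1 and 8 F2 libraries. This fit joined the separately scaled F1 and F2 tables and was added after the data had been seen. For Wee1 the F1 effect was 1.70 lower on the log2 scale (difference -1.70, SE 0.27, adjusted p = 0.13) and for Per2 -1.67 (SE 0.46, adjusted p = 0.923). Of 16355 genes, 0 passed at adjusted p under 0.05, and at unadjusted p under 0.05 692 (4.23%) were lower and 56 higher in F1.

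Of the 18 clock and clock-output genes tested, Per2 was the 1 that passed. Per1 and Per2 passed the study's threshold in the lower direction (background 0.552%), and the groups of Per1, Per2, Nfil3 and Cry1 did not overlap (background 6.22%). Per1 read 68.0, 79.1, 109, 96.5 and 105 CPM against 13.8, 47.0 and 60.1 CPM (log2 fold change -1.39). Nfil3, a repressor that opposes DBP at its target genes, read 17.9 to 23.5 CPM in CR×CR and 12.3, 12.96 and 12.9 CPM in GF×GF (-0.69). The activators Arntl (-0.04) and Clock (-0.10), the repressor Nr1d1 (0.13) and the output gene Dbp (0.52) did not pass and overlapped. The list's median log2 fold change was -0.10 as deposited and 0.11 under median-ratio scaling, beside -0.20 and 0.00 over all genes.

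Glucocorticoid-responsive genes were lower as a list, although none of them alone passed the adjusted test. Of 15 tested, 0 were at limma adjusted p under 0.05, 11 were lower at unadjusted p under 0.05 (background 8.47%), 7 were past the study's threshold in the lower direction (background 0.552%) and 8 had GF×GF mice all below the CR×CR mice (background 6.22%). The list's median log2 fold change was -1.01 as deposited and -0.80 under median-ratio scaling. Under that scaling 5 were past the study's threshold in the lower direction, where 41 of all genes tested were. The number lower at unadjusted p under 0.05 in limma stayed at 11. Its summed level was 1363, 886, 1243, 1420 and 1158 CPM in CR×CR and 638, 751 and 685 CPM in GF×GF, without overlap. Without each mouse in turn the number past the study's threshold ran from 4 (without GF×GF 1) to 10 (without CR×CR 2) and the median from -1.12 to -0.85. The members were assembled with earlier results of these data known, so their count is a description.

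Ddit4, an inhibitor of the growth kinase mTORC1, read 28.96, 28.2, 50.8, 43.7 and 55.9 CPM in CR×CR and 10.3, 16.4 and 12.5 CPM in GF×GF (log2 fold change -1.60, SE 0.26, limma adjusted p = 0.0635). Tsc22d3, which encodes the anti-inflammatory protein GILZ, read 149, 138, 209, 177 and 224 CPM against 42.9, 87.5 and 74.3 CPM (-1.42, SE 0.25, adjusted p = 0.0906). In both genes every GF×GF mouse was below every CR×CR mouse. Zbtb16, a zinc-finger transcription factor, read 102, 52.0, 91.1, 141 and 76.0 CPM against 29.1, 37.04 and 35.7 CPM (-1.37, adjusted p = 0.19), also without overlap. Fkbp5, a co-chaperone that restrains the receptor itself, read 40.6, 19.3, 47.2, 73.0 and 34.5 CPM against 13.5, 19.6 and 9.84 CPM (-1.48, adjusted p = 0.47). Its groups overlapped at CR×CR 2, the mouse with the lowest summed level among the controls.

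Cebpd, a transcription factor of the acute phase, read 46.1 to 68.4 CPM in CR×CR and 22.4, 32.1 and 30.7 CPM in GF×GF (log2 fold change -1.01). Sgk1, a kinase that controls ion channels, read 52.4, 76.0, 69.4, 72.3 and 72.1 CPM against 26.8, 46.7 and 35.8 CPM (-0.92). Klf9, a repressor known as a direct receptor target, was at -0.75, and none of Cebpd, Sgk1 and Klf9 overlapped between groups or passed the adjusted limma test. Errfi1 (-1.07), the metallothionein gene Mt2 (-1.08) and Cdkn1a (-0.49) had overlapping groups. The metabolic members Angptl4 (0.51) and Pdk4 (0.42) lay on the other side of 0. The receptor gene Nr3c1 had a log2 fold change of -0.02.

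**Figure D3:**
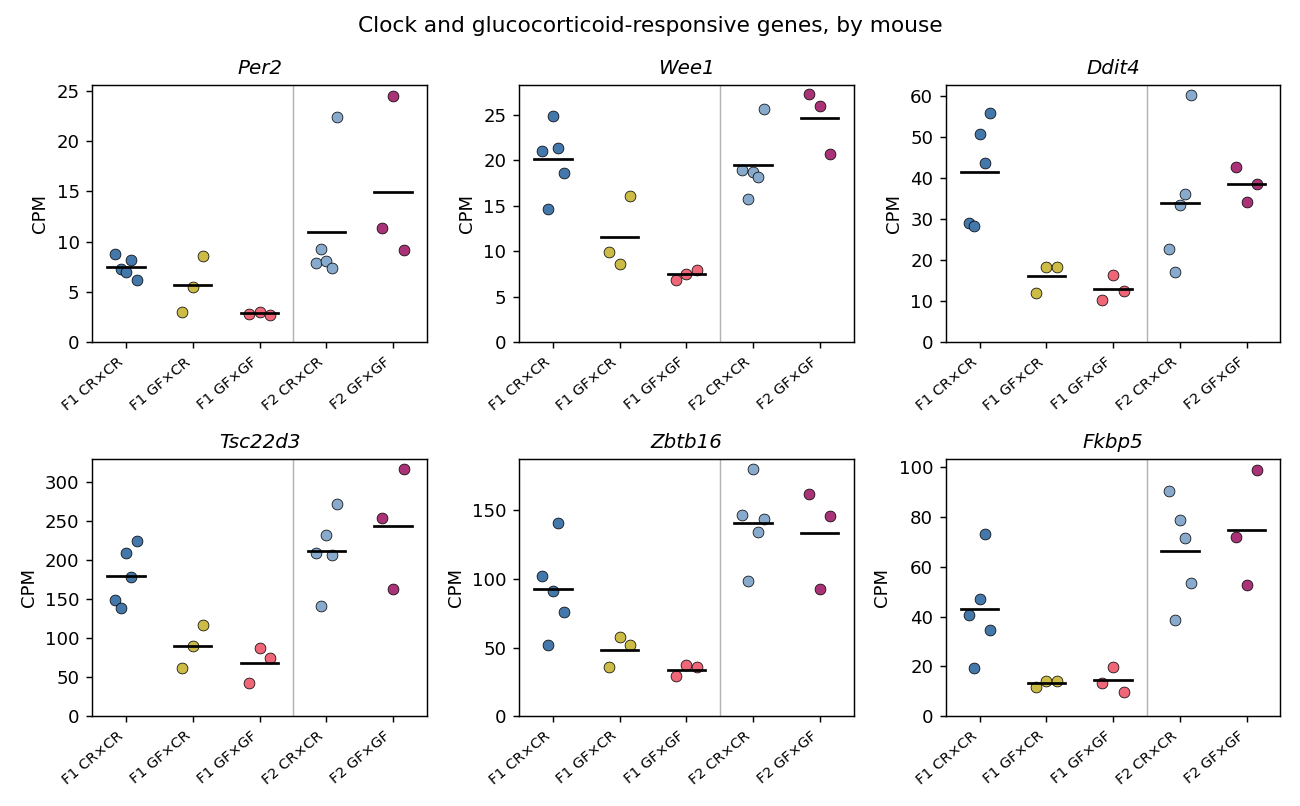
CPM (linear axis from 0) of Per2, Wee1, Ddit4, Tsc22d3, Zbtb16 and Fkbp5 in each mouse of F1 CR×CR, F1 GF×CR, F1 GF×GF, F2 CR×CR and F2 GF×GF skin, 1 point a mouse, with bars at group means; the crosses come from separately scaled tables. The CR×CR points are those of the GF×GF table; in the GF×CR table the same mice read 5.46 to 7.76 CPM of Per2. F1 GF×GF mice lay below F1 CR×CR mice for all but Fkbp5, where 1 control overlapped, and the F2 groups overlapped for all 6 genes.

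Upstream windows of 4 genes of this list are printed because each holds a match to a binding motif named above, searched on both strands in the 250 bases before the annotated start. The sequences are RefSeq's for GRCm38.p6, written 5′ to 3′ on the gene's strand, with every match to the 3 motifs in capitals. Sgk1 (chr10:21993640-21993889, plus strand) holds the receptor palindrome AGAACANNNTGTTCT and, farther upstream, an E-box that runs into a half-site. Tsc22d3 (chrX:140600523-140600772, minus strand) holds the half-site AGAACA, here read from the opposite strand. Fkbp5 (chr17:28486150-28486399, minus strand) and Per1 (chr11:69098699-69098948, plus strand) hold the E-box CACGTG.
Sgk1: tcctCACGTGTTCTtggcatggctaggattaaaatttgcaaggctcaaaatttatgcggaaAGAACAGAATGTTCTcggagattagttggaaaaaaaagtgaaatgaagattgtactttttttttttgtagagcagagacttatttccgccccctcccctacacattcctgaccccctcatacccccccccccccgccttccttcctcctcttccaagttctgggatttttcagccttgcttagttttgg
Tsc22d3: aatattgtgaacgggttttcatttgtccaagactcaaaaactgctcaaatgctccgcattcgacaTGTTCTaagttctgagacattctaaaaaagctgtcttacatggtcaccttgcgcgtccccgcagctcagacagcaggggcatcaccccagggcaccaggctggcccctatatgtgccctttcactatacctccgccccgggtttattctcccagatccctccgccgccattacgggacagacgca
Fkbp5: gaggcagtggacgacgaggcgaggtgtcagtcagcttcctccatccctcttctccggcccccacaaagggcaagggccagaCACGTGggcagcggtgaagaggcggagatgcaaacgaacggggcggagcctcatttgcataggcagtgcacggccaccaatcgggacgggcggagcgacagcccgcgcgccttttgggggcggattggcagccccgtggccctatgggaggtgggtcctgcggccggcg
Per1: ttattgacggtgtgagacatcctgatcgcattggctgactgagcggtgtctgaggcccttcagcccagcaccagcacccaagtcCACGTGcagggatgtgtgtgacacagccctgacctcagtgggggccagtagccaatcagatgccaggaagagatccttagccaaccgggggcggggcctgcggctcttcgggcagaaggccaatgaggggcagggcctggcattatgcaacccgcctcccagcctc
The palindrome of Sgk1 began 189 bases before the start, its E-box 246 and the overlapping half-site 242. The matches in Tsc22d3, Fkbp5 and Per1 began 185, 169 and 166 bases before the start. Sgk1 has 6 annotated windows, Tsc22d3 has 3 and Per1 has 2, of which 1 each is shown. The palindrome was in 3 of the 32851 mouse windows (0.00913%), the half-site, which every palindrome also contains, in 5284 (16.1%) and the E-box in 1978 (6.02%). Of the list's 15 genes, 12 had windows, 22 in all: 1 held the palindrome (4.55%), 4 the half-site (18.2%) and 3 the E-box (13.6%). Of the 18 clock genes, 15 had windows, 20 in all, and 6 of these held the E-box (30%). A match describes letters in a window and was not tested for binding.

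In F2 skin 0 of the 15 glucocorticoid genes were past the study's threshold or lower at unadjusted p under 0.05 (background 0.848%), and the median log2 fold change was 0.18 on either scale. Ddit4 read 42.8, 34.3 and 38.5 CPM in F2 GF×GF and 17.1 to 60.2 CPM in F2 CR×CR, and Tsc22d3 253, 162 and 316 CPM against 141 to 271 CPM. In the interaction fit, 10 of 15 (66.7%) had an F1 effect below the F2 effect at unadjusted p under 0.05, against 4.23% of all genes. None passed after adjustment in limma, and the list's median difference was -1.10, beside -0.20 over all genes (-0.88 and 0.00 under median-ratio scaling). Because the list was assembled with earlier results of these data known, this share too is a description and not a test of the list. GF×CR skin, against the same F1 controls, had 12 of 15 lower at unadjusted p under 0.05 (background 5.77%), 6 past the study's threshold (0.447%) and 7 without overlap (3.64%), with a median of -0.88 (-0.79 under median-ratio scaling). It read 12.1, 18.3 and 18.4 CPM of Ddit4, 60.9, 89.6 and 117 CPM of Tsc22d3 and 35.7, 57.9 and 51.7 CPM of Zbtb16. In the isolated F1 glands 5 of 15 were past the study's threshold in the lower direction (background 1.55%), with a median of -0.36 (-0.34), and 1, the metallothionein gene Mt1, was higher at limma adjusted p under 0.05. GF×GF gland samples read 15.2, 21.5 and 14.4 CPM of Ddit4 against 43.3 and 32.98 CPM, and 28.3, 32.7 and 29.6 CPM of Tsc22d3 against 138 and 57.5 CPM. Neither overlapped there, where 16.1% of all genes were apart in that direction.

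**Figure D4:**
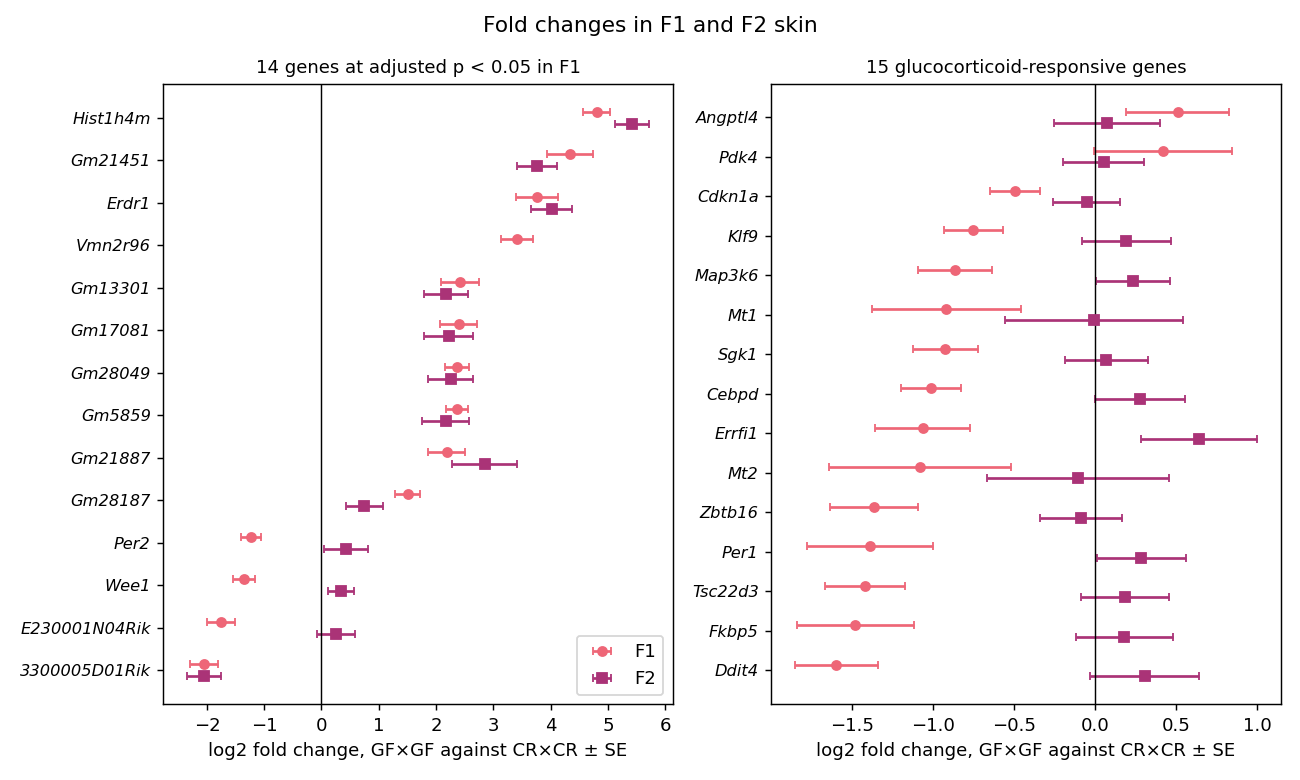
Log2 fold change ± SE of GF×GF against CR×CR skin in F1 (circles) and F2 (squares), from limma on log2(CPM + 0.5), 3 against 5 mice in each generation, for genes at adjusted p under 0.05 in F1 (left, without Gm28438, which is listed at 0 in GF×GF) and for 15 glucocorticoid-responsive genes (right). Most raised transcripts on the left kept their side of 0 in F2, whereas Per2, Wee1 and E230001N04Rik and most genes on the right were below 0 in F1 and near or above 0 in F2.

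The called genes were then counted in F2. Of the 10 genes higher in F1 at adjusted p under 0.05, 9 were tested in F2, all 9 were above 0 there and 8 passed the study's threshold, which is 80% of the F1 genes and 14.8% of the 54 F2 genes. Of the 5 lower genes, 2 did (40% of the F1 genes and 5.56% of the 36 F2 genes), namely Gm28438 and 3300005D01Rik. At the study's threshold on both sides, 13 of 33 higher genes were shared (39.4% of F1, 24.1% of F2) and 3 of 92 lower genes (3.26% of F1, 8.33% of F2), and the difference between the sides was not tested. Gm15899, Phldb3 and Pfkfb4 were past that threshold in opposite directions in F1 and F2. Background for that threshold in F2 was 0.322% higher and 0.215% lower. At adjusted p under 0.05 in F2, where 0.0239% of genes were higher and 0.0179% lower, Hist1h4m, Erdr1, Gm21451, Gm28438 and 3300005D01Rik passed. The shared higher genes outside those already named were Fam133b, Flt3l, Gm17167, Pydc3 and Zgrf1.

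Other protein-coding genes reached the study's threshold without overlap but did not pass the adjusted test. Pydc3, an interferon-inducible gene (RefSeq Ifi208), read 3.21, 3.52, 3.41, 3.42 and 2.14 CPM in CR×CR and 10.2, 12.5 and 5.84 CPM in GF×GF (log2 fold change 1.41, limma adjusted p = 0.105, and 0.0223 under median-ratio scaling). Zgrf1 (1.37), Nolc1 (1.32) and Pfkfb4 (1.53) were also on the higher side, and in F2 Pfkfb4 was at -1.17, past the study's threshold the other way. On the lower side, Myh1, a fast skeletal muscle myosin, read 1876, 2099, 1774, 1988 and 2017 CPM against 1094, 646 and 872 CPM (-1.19, adjusted p = 0.0906). Spsb1 read 18.2 to 26.7 CPM against 9.46, 10.96 and 9.68 CPM (-1.03, adjusted p = 0.0636), and the protease inhibitor gene Serpina3j 41.2 to 64.0 CPM against 23.5, 29.2 and 18.1 CPM (-1.18, adjusted p = 0.0906). Serpina3j belongs to a cluster of close paralogs whose reads may be shared. In F2 the log2 fold changes were 0.12 for Myh1, 0.25 for Spsb1 and 0.02 for Serpina3j. Of 37 tested skeletal muscle genes 1 was past the study's threshold, and the list's median was -0.23 (-0.04 under median-ratio scaling).

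The study measured sebum as lipids on fur, and also sequenced isolated glands. It reported lower lipid-metabolism pathways in glands of GF mice and of offspring of GF mice colonized from birth. In whole skin, which is read here, sebum lipid genes lay near the median of all genes. Of 29 tested, 0 passed the adjusted limma test, 1 was higher (background 0.462%) and 2 lower (background 8.47%) at unadjusted p under 0.05, and the median log2 fold change was -0.14 (0.06 under median-ratio scaling). Fasn, fatty acid synthase, was the 1 higher gene: 60.0, 144, 260, 220 and 140 CPM in CR×CR against 432, 285 and 272 CPM in GF×GF, without overlap (1.13, SE 0.40, adjusted p = 0.54). In GF×CR skin Fasn read 106, 74.6 and 67.8 CPM, and its F2 log2 fold change was 0.31. Scd1, a desaturase gene that the lists used here also count among adipocyte genes, read 1156 to 3909 CPM in CR×CR skin and 4339, 3608 and 1278 CPM in GF×GF skin, which overlapped (0.52, adjusted p = 0.64). In isolated F1 glands the sebum lipid list (29 tested) had a median of -0.04 (-0.02). There 3 genes were higher (background 0.564%) and 1 lower (background 0.153%) at limma adjusted p under 0.05. Gland cholesterol synthesis genes (23 tested) had a median of -0.22 (-0.20), with 9 apart in the lower direction (background 16.1%) and 3 in the higher (background 14%). Their summed level was 11695 to 11969 CPM in CR×CR and 8747 to 11245 CPM in GF×GF. Of them, 1 was higher and 0 lower at limma adjusted p under 0.05. The lists that follow are again those of whole skin. Sebocyte identity genes (12 tested) had a median of -0.27 (-0.07 under median-ratio scaling) and cholesterol synthesis genes (23) -0.31 (-0.10), and in neither list did a gene pass the adjusted test or the study's threshold. Tslp, a keratinocyte cytokine that acts on T cells, was at or below 0.67 CPM in every mouse and below the limit for testing.

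Of 21 tested T cell genes, 0 passed the adjusted limma test and 9 were lower at unadjusted p under 0.05 (background 8.47%). That count was 5 under median-ratio scaling, 4 without GF×GF 3, 5 without CR×CR 3 or GF×GF 1 and 0 with the Y-linked covariate, where the median was -0.18. The list's median was -0.55 (-0.38 under median-ratio scaling), and its summed level was 68.8 to 107 CPM in CR×CR and 49.6 to 78.3 CPM in GF×GF, which overlapped. In F2 its median was 0.18 (0.19). Il7r, the shared receptor chain for IL-7 and TSLP, was at -0.71 and did not pass the adjusted test. Mast cell genes (11 tested) had a median of -0.39 (-0.20), with Tpsab1, a tryptase, at 0.93 to 1.69 CPM in CR×CR and 0.321, 0.271 and 0.311 CPM in GF×GF. As deposited, the epidermal medians were -0.34 for 14 basal genes and -0.36 for 34 differentiation genes, with no gene past the study's threshold. Under median-ratio scaling they were -0.13 and -0.14. After that scaling 13 of the 14 and 27 of the 34 were below 0, against 8281 of all 16668 genes.

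Of the hair shaft genes, 3 of 22 hair keratins and 1 of 58 keratin-associated protein genes were high enough to test. Of 26 hair follicle growth genes 20 were tested, with a median of -0.08 (0.10) and none past the study's threshold. Adipocyte genes (25 tested) had a median of 0.04 (0.26) and fibroblast genes (28) -0.38 (-0.16), with none past the study's threshold. Of 21 immediate-early genes, which respond within minutes to handling and stress, Fos, Ier2 and Junb were higher at unadjusted p under 0.05 (background 0.462%), Fos alone was past the study's threshold (background 0.198%) and none passed the adjusted limma test. Fos read 25.9, 150, 62.8, 46.8 and 38.1 CPM in CR×CR and 108, 155 and 122 CPM in GF×GF, overlapping at CR×CR 2. That mouse was also the control with the lowest summed glucocorticoid level. The part of handling or sampling in the lower clock and glucocorticoid genes was not tested.

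**Figure D5:**
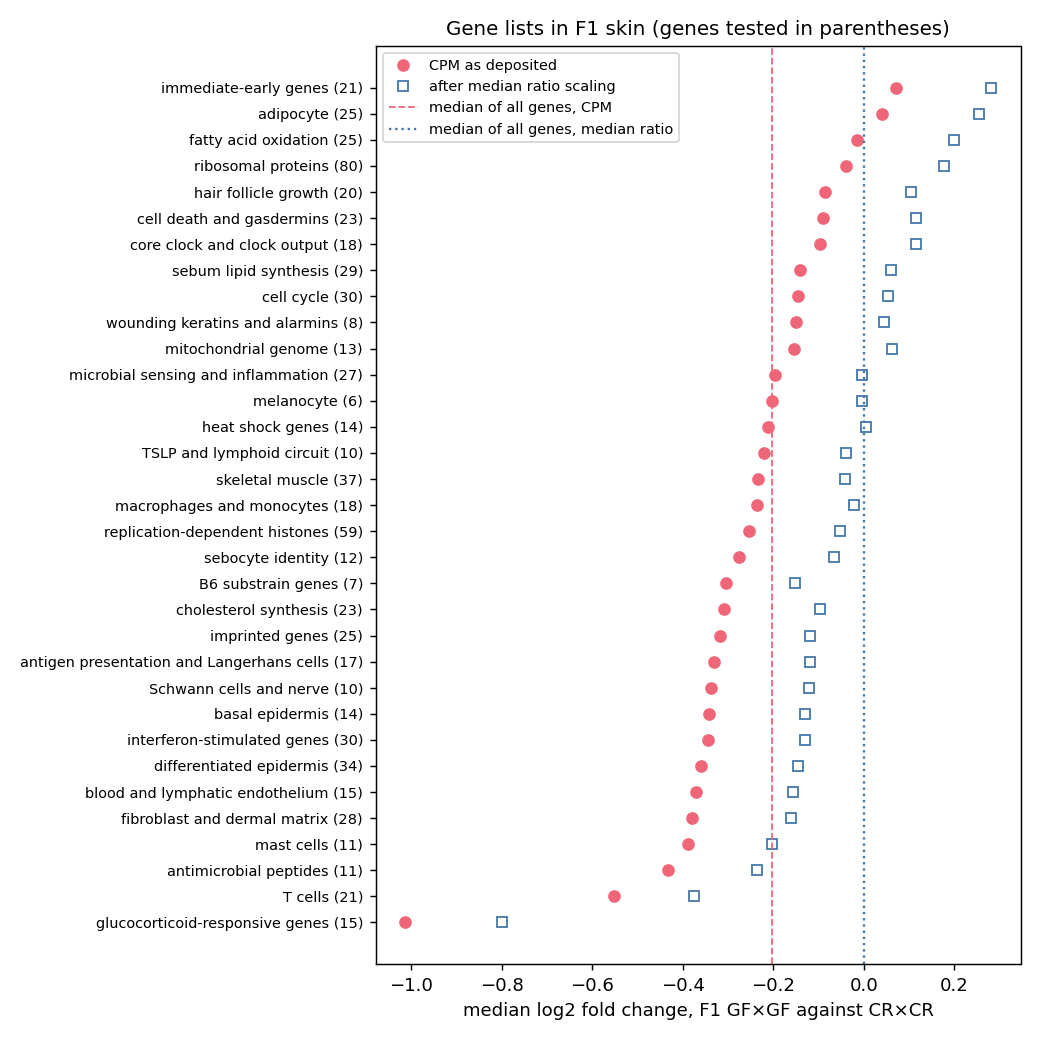
Median log2 fold change, F1 GF×GF against CR×CR skin, of each gene list with at least 5 tested genes (number tested in parentheses), as deposited and after median-ratio scaling, with dashed lines at the medians over all genes (-0.20 and 0.00). The glucocorticoid list stood at -1.01 and -0.80, T cells at -0.55 and -0.38 and immediate-early genes at 0.07 and 0.28.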

How the data were processed

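The authors estimated reads per Ensembl gene with Kallisto in R 4.2 and deposited CPM (reads scaled to a common total), 1 table for each cross; the genome build is not given in the sources used here. The CPM were not whole reads after any rescaling, so no count test was run. The 5 F1 CR×CR mice stand in both F1 tables, where their values differed by a factor set per gene. This factor ran from 0.723 to 1.286 and was within 5% for 92.91% of 15052 genes. Every test of a cross was made within 1 table, and the interaction fit alone joined the F1 and F2 tables. Of 38605 genes listed, genes reaching 1 CPM in 3 or more of the 8 libraries were kept, and log2(CPM + 0.5) was fitted with limma 3.58.1 (trend; R 4.3.3), with Benjamini-Hochberg adjustment over all genes kept. The fit was tested on simulated data. Entries whose names had been turned into dates, 27 in all, were left out. P-values measure the spread between mice, whose litters are not given. The study reports few F0 breeding pairs a group for its F1 sebum cohort, and whether these mice belong to it is not stated. Mice of a group may therefore share parents and not be independent. Where a group was listed at 0 in all or most mice, as for Gm28438, Hist1h4m and Gm21451, that group added almost no spread. Upstream windows came from RefSeq (GRCm38.p6). Named genes were those at adjusted p under 0.05, filled up by smallest p among genes past the study's threshold whose groups did not overlap, with up to 4 genes a list of smallest p, and Erdr1, Hist1h4m, Tslp and Scd1; a few more members of a list or neighbours of a named gene were added after their values were seen. The comparison, the gene lists and their members were chosen with earlier results of these data known. Alternatives were other pseudocounts, filters and scalings, array weights, a Y-linked covariate, a replicate block, leaving out each mouse, and CPM without the abundant noncoding genes.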

Additional observations from a re-analysis of the deposited data

Results flagged for a closer look

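Among 44 values examined for a single mouse far from the other 4 of the CR×CR group, 5 had one. Chance gives about 1 in 20 where values are normally distributed. For Hist1h4m and Gm21451 the other 4 controls were listed at 0, so any value above 0 was flagged and that rate does not hold. CR×CR 5 had the only CPM above 0 among the controls for Hist1h4m (0.3133 CPM) and for Gm21451 (0.2944 CPM). The same mouse had the lowest Pydc3, at 2.142 CPM. CR×CR 1 had the lowest Sgk1 of its group, at 52.42 CPM, which was still above all 3 GF×GF mice. Mitochondrial ribosomal RNA took 10.26% of the CPM of CR×CR 4.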

How the results depend on the processing

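Every called gene kept its direction in all alternatives in which it could be tested. Hist1h4m, Gm21451, Vmn2r96, Gm5859, Gm28049 and Gm28438 also kept adjusted p under 0.05 in each; the first 3 fell below the filter when a GF×GF mouse was left out, and Vmn2r96 also with a filter at 5 CPM. At adjusted p under 0.05, 10 genes were higher and 5 lower as deposited; with array quality weights the numbers were 139 and 2238, with the Y-linked covariate 6 and 1, and with no filter 6 and 1. The lower genes were 2 under median-ratio scaling, 2 under quantile normalization, and 2 with CPM without Gm22405, Gm26191, Rpph1, Rmrp and mitochondrial rRNA, with or without CR×CR 4 (an alternative chosen after seeing the data). At the study's threshold (33 higher, 92 lower), array weights gave 88 and 269, the Y-linked covariate 97 and 60, and a filter at 5 CPM 17 and 56. CPM without the noncoding genes gave 54 higher, with or without CR×CR 4. Median-ratio scaling and quantile normalization gave 41 lower, a pseudocount of 0.1 gave 159 and a pseudocount of 1 gave 59. Why array weights call so many more was not tested. Leaving out each mouse gave 3 to 9 higher and 1 to 7 lower at adjusted p under 0.05; the higher were 3, 4 and 4 without GF×GF 3, 1 and 2 and 6 without CR×CR 5, and the lower 1 without GF×GF 1 or 3 and 2 without CR×CR 3, 4 or 5. At the study's threshold the ranges were 20 (without GF×GF 1) to 44 higher and 62 to 269 (without GF×GF 2) lower. The replicate numbers do not pair the mice: same-numbered mice correlated at 0.08, 0.39 and -0.11. With the number as a block, 9 genes were higher and 4 lower at adjusted p under 0.05, and 58 and 133 at the study's threshold. With 3 GF×GF mice and depth not exact, transcripts under about 1 CPM were not testable.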

Other observations

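Of 12 tested genes named Serpina, which encode serine protease inhibitors and were looked at after their values were seen, 6 were past the study's threshold in the lower direction in F1 GF×GF skin (0.552% of all genes) and 4 had GF×GF mice all below the CR×CR mice (6.22% of all genes). The 6 were Serpina1b (log2 fold change -2.03), Serpina1a (-1.57), Serpina3b (-1.24), Serpina3j (-1.18), Serpina3h (-1.16) and Serpina3n (-1.08). The median over the 12 was -0.98 as deposited and -0.78 under median-ratio scaling. None passed the adjusted limma test, and these paralogs can share reads, so the 12 do not count as separate measurements.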
